A study of Homo sapiens with 8 samples.

Results

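Antibodies act on cells through receptors for their constant (Fc) part. The 10 genes described here are those of such receptors, their close relatives and their partners. They are the low-affinity IgG receptor genes FCGR2A, FCGR2B, FCGR2C, FCGR3A and FCGR3B, the high-affinity receptor gene FCGR1A, the Fc receptor-like genes FCRLA and FCRLB, the signalling subunit gene FCER1G and the neonatal receptor gene FCGRT. They were chosen by symbol, 10 of the 63677 genes in the table, after high values of FCGR2B and FCGR2C in the knockdown cells had been seen. The knockdown against control difference of these genes is therefore described with its standard error, and no p-value is given for it. The cells were LY2, which derive from MCF-7 breast cancer cells and resist endocrine therapy. They made short hairpin RNA stably, non-targeting in the control group (shNT) and directed at NCOA1, the gene of the nuclear receptor coactivator SRC-1, in the knockdown group (shSRC1), and each group had 4 libraries. Both groups were held under puromycin at 500 ng/mL, were deprived of steroids for 72 h and were then exposed for 8 h to 4-hydroxytamoxifen, the active form of tamoxifen. All libraries thus come from tamoxifen-treated cells, and neither the number of hairpins or clones nor separate cultures per replicate are described in the labels. Spread between libraries may then be technical only.

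Fc gamma receptors are known from macrophages, neutrophils, natural killer cells and B cells, where antibody-coated particles cluster them. FCGR2A carries an activating tyrosine motif in its own cytoplasmic tail, and the annotated coding sequence of FCGR2C holds the same motif. The gene annotation lists FCGR2C as a polymorphic pseudogene. Whether its copy in these cells can make a receptor was not tested. FCGR1A and FCGR3A signal through the partner subunit made by FCER1G, and Src family kinases and SYK pass the signal on. FCGR2B carries an inhibitory motif that recruits the lipid phosphatase SHIP1 (INPP5D) and damps activation. FCGRT is different in kind: it pairs with beta-2-microglobulin (B2M) inside many cell types and saves IgG and albumin from breakdown. FCRLA and FCRLB are intracellular relatives described in B cells.

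The coding stretches of the tail motifs are shown because they are what sets the inhibitory receptor apart from the activating ones. In the GENCODE 29 transcripts, capitals mark the codons of the tyrosines and of the residues that close each motif.
FCGR2A, activating motif: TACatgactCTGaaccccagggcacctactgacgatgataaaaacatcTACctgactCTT
FCGR2C, activating motif: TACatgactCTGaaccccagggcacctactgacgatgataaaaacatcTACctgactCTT
FCGR2B, inhibitory motif: atcaccTATtcacttCTC
The 60 bases of the activating motif were identical in FCGR2A and FCGR2C and lay 30 bases before the end of the coding sequence in both. The 18 bases of the inhibitory motif lay 45 bases before the end of the coding sequence of FCGR2B.

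The coding sequence of FCGR2C overlaps both of the others. Of the 920 windows of 50 bases in FCGR2C, 596 (64.8%) also occurred in an annotated FCGR2B transcript and 303 (32.9%) in an FCGR2A transcript, some in both, and 170 (18.5%) occurred in neither. In FCGR2B, 265 of 881 windows (30.1%) occurred in neither of the other genes, and in FCGR2A 575 of 902 (63.7%). The longest such run in FCGR2B held 169 windows and reached its last coding base, 930, so it takes in the inhibitory motif. Reads that carry this end of FCGR2B can be told from FCGR2C, whereas those from much of the rest of the coding sequence cannot. Untranslated bases were not searched, though the annotated exons hold 6651 bases in FCGR2B and 3580 in FCGR2C. The separate values of FCGR2B and FCGR2C are uncertain for these reasons. Their sum is given beside them.

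**Figure D1:**
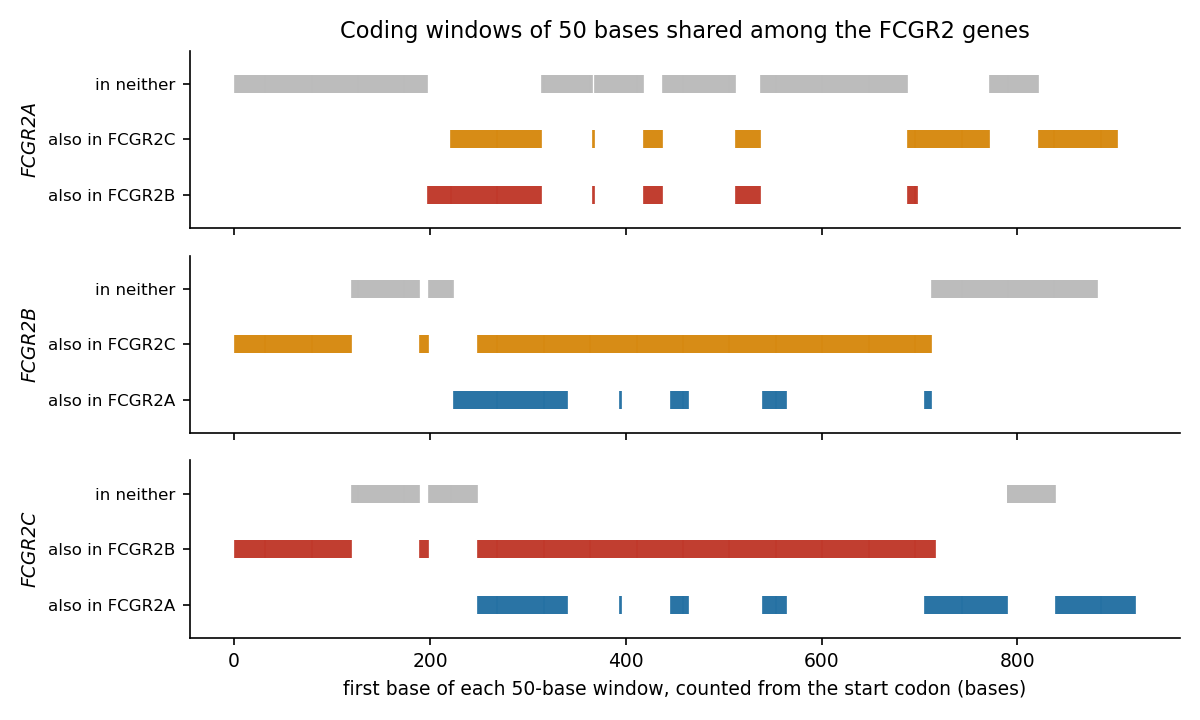
Each mark is a window of 50 coding bases, placed by its first base counted from the start codon, in FCGR2A, FCGR2B and FCGR2C (rows of panels). Colours show windows that also occur in each of the other genes, and grey shows the 575, 265 and 170 windows that occur in neither; the grey run at the right of FCGR2B is its own tail.

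Upstream sequences from RefSeq are shown for FCGR2A, FCGR2B and FCRLB, which were high in shSRC1, and for FCGR1A and FCRLA, which were not. Each is the stretch of 250 bases before the RefSeq start nearest to the start of the GENCODE gene, on GRCh38.p14, written 5′ to 3′ on the gene's strand, and capitals mark the letters GAGGAAG or their reverse complement CTTCCTC, the core bound by the myeloid and B-cell factor PU.1 (SPI1).
FCGR2A promoter, chr1:161505207-161505456, plus strand: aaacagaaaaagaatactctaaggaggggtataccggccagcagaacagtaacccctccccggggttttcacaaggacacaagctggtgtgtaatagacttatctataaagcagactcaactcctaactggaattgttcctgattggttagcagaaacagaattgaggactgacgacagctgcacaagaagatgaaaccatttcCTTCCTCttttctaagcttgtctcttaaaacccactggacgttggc
FCGR2B promoter, chr1:161662893-161663142, plus strand: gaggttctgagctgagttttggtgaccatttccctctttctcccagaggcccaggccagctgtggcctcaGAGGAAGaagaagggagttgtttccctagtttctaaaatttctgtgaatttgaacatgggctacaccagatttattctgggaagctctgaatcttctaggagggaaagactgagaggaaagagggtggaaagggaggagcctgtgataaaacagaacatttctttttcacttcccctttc
FCRLB promoter, chr1:161721294-161721543, plus strand: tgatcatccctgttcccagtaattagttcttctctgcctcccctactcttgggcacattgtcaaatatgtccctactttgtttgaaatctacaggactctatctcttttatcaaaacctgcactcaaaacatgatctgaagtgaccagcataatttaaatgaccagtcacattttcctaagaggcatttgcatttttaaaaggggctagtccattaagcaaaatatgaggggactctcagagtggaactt
FCGR1A promoter, chr1:149782444-149782693, plus strand: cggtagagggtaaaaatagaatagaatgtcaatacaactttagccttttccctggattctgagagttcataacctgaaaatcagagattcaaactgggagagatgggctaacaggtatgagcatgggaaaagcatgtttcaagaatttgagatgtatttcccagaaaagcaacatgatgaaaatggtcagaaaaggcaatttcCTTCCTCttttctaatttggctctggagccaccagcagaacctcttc
FCRLA promoter, chr1:161706979-161707228, plus strand: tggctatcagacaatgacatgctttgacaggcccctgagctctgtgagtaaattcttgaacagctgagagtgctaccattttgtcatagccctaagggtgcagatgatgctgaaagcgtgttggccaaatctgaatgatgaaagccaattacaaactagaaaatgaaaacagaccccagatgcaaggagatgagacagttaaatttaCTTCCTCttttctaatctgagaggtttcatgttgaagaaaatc
The table held a promoter for 9 of the 10 genes, and FCGR2C was not matched. The letters GAGGAAG, on either strand, were in 4 of the 9 stretches, 1 for each gene, against 11.2% of 35116 upstream stretches of the same length from 27305 genes. They stood in FCGR2A and FCGR2B, which were high in shSRC1, and in FCGR1A and FCRLA, which were not. The table lists several starts for some genes, and the letters stood before 1 of 2 starts of FCGR2B and 1 of 3 of FCRLB, in the latter at a start not printed here. FCGR2A, FCGR1A and FCRLA shared the 15 bases cttcctcttttctaa, which begin at position -46 from the start of FCGR2A and at -43 in FCRLA, and these 3 genes were the only ones of the table to hold them on this strand in this window. FCGR2A and FCGR1A shared 20 bases there, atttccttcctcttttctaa. The full palindromic estrogen response element was in 0 of the 9 promoters and in 0.0399% of all, and its single arm, GGTCA on either strand, was in 5 of the 9 and in 32.6% of all. The AP-1 letters TGANTCA were in 0 of the 9 and in 6.57% of all, though before 1 other start each of FCGR2B and FCRLB. No start of the 9 genes had the full estrogen response element. Matches of letters do not show that a factor binds.

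The libraries held 33771775 to 67022036 reads assigned to genes, the lowest in shSRC1 replicate 2 and 58459196 or more in the other 7. All values below are normalized reads, that is reads divided by a size factor per library. NCOA1 itself stood at 4381, 4212, 4467 and 4525 in shNT replicates 1 to 4 and at 1927, 1895, 2215 and 2107 in shSRC1. Its fall of 1.11 on the log2 scale (SE 0.08) had an adjusted p of 2.25e-07 in limma, the linear model fitted across genes. The 8 luminal breast epithelial markers were all read in every library, with a summed level of 340043 to 416533 in shNT and 513845 to 583254 in shSRC1. Of them KRT19, KRT8 and KRT18 rose (log2 fold changes 0.68, 0.68 and 0.47, limma adjusted p 6.09e-04, 9.58e-04 and 0.0073). The other 5 did not pass in limma and went both ways. GATA3 and CDH1 had log2 fold changes of 0.19 and 0.11, and ESR1, EPCAM and FOXA1 of -0.13, -0.16 and -0.07. The sum rests mainly on the keratins.

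One library, shNT replicate 3, stood apart from the other controls across genes, among them transcripts that bear on antibody biology. Chi-square per degree of freedom between the reads of 2 libraries was 41.9, 86.8 and 70.8 for its pairs with shNT replicates 1, 2 and 4. The other shNT pairs had 7.72 to 26.4, and the shSRC1 pairs 6.50 to 45.7. In shNT replicate 3 the IgG heavy chain constant genes IGHG1, IGHG2, IGHG3 and IGHG4 were at 426, 104, 45.5 and 76.1 normalized reads, a sum of 652, whereas the same sum was 3.71 to 21.5 in the other shNT libraries and 5.50 to 22.7 in shSRC1. The kappa light chain gene IGKC had 8.36 there and 0 in the other 7 libraries. Of the 9 Fc receptor and FCRL genes with a read in shNT, 5 had their highest shNT value in that library (FCGR2A, FCGR2C, FCGR3A, FCGR1A and FCER1G) and 3 their lowest (FCGR2B, FCRLB and FCGRT). Leukocyte markers went both ways in it. CD53 at 37.1, LYZ at 52.0, NKG7 at 26.0 and the common leukocyte antigen PTPRC at 8.36 were at their highest shNT value there, and the myeloid marker sum was 118 against 58.5 to 78.0. LCP1 at 2620, CORO1A at 513 and CD8A at 531 were at their lowest, as were the pan-leukocyte sum (3179 against 4007 to 4199) and the natural killer and T cell sum (577 against 640 to 710). Without this library the log2 differences described below were 2.73 for FCGR2A, 3.10 for FCGR2B, 3.30 for FCGR2C, 2.92 for FCRLB, -0.28 for FCGR1A, -0.06 for FCGRT and 0.22 for FCER1G.

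**Figure D2:**
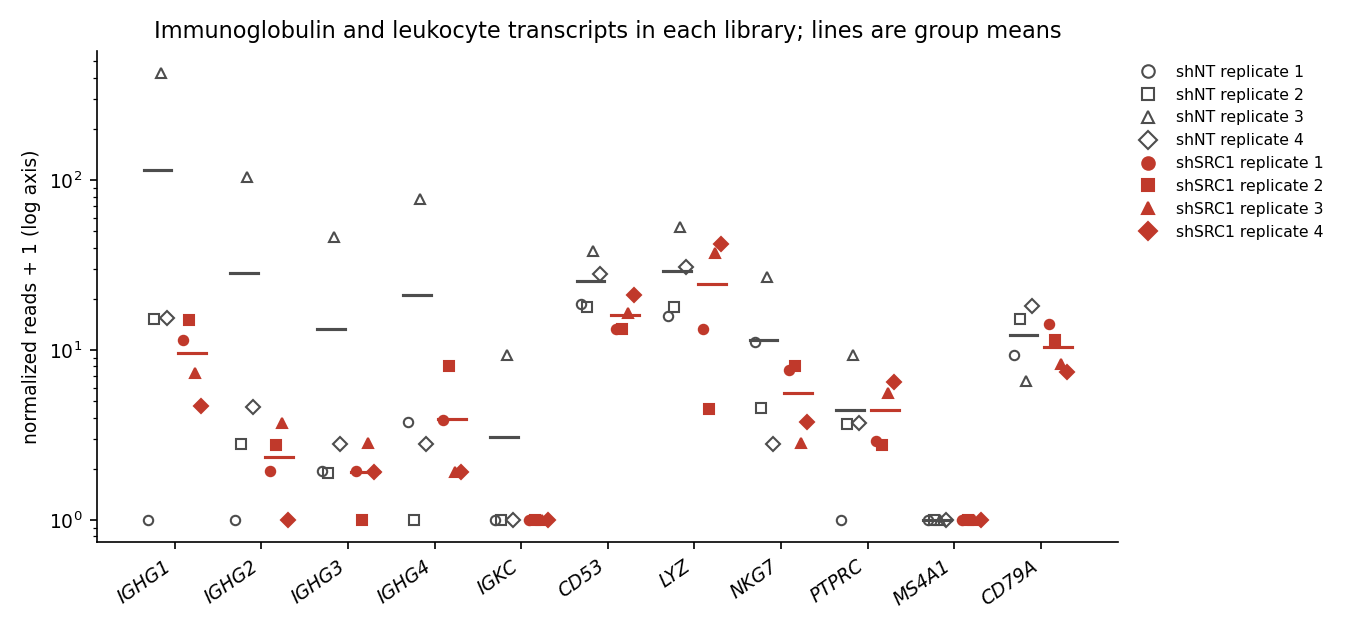
Normalized reads plus 1, on a log axis, of 5 immunoglobulin constant genes and 6 leukocyte genes; open marks are shNT and filled marks shSRC1 libraries, and lines are group means. The open triangle, shNT replicate 3, stands at 426 for IGHG1, where the other libraries stand at 14.4 or lower. The B cell gene MS4A1 is at 0 in every library. LCP1, CORO1A and CD8A, at their lowest shNT value in shNT replicate 3, are not drawn.

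The activating receptor FCGR2A was low in control cells and higher in every knockdown library. Its values were 15.8, 16.0, 33.4 and 24.2 normalized reads in shNT replicates 1 to 4 and 115, 140, 121 and 134 in shSRC1, so the groups did not overlap. The means were 22.4 ± 8.4 and 127 ± 12 (SD, n = 4 each), a ratio of 5.70. These rest on 98 reads from shNT and 480 from shSRC1. On the log2(value + 1) scale, which understates changes of low genes, the difference was 2.52 (SE 0.26). In bulk RNA, more cells with a transcript and more transcript per cell cannot be told apart.

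The inhibitory receptor FCGR2B showed a larger difference. It stood at 65.9, 88.9, 59.4 and 96.0 in shNT and at 583, 831, 730 and 738 in shSRC1, with means of 77.5 ± 17.6 and 720 ± 103 (SD, n = 4 each) from 342 and 2697 reads. The ratio was 9.29 and the log2 difference 3.22 (SE 0.20). No shNT library exceeded 96.0 and no shSRC1 library was below 583. The library shNT replicate 3, the highest control for FCGR2A, was the lowest here.

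FCGR2C, which shares most of its windows with FCGR2B and its tail motif with FCGR2A, stood at 24.1, 33.8, 38.1 and 26.9 in shNT and at 209, 360, 290 and 303 in shSRC1. Its means were 30.7 ± 6.4 and 291 ± 62 (SD, n = 4 each), a ratio of 9.46 and a log2 difference of 3.20 (SE 0.22). Summed with FCGR2B, the values were 90.0, 123, 97.5 and 123 in shNT against 792, 1191, 1020 and 1041 in shSRC1. The sum thus went from 108 ± 17 to 1011 ± 165 (SD, n = 4 each), on 477 and 3773 reads, with a log2 difference of 3.21 (SE 0.17). This value does not depend on how reads were divided between the pair, except for reads that matched both and were not counted. Since FCGR2C is annotated as a polymorphic pseudogene, its difference describes RNA only.

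The balance within the pair was alike in the group means. FCGR2C made up 26.8%, 27.5%, 39.0% and 21.9% of the pair's reads in shNT and 26.4%, 30.2%, 28.4% and 29.1% in shSRC1. The means were 28.8% ± 7.3 and 28.5% ± 1.6 (SD, n = 4 each). The exact Clopper-Pearson 95% interval was 29.7% to 49.1% for shNT replicate 3, from 105 reads, and 26.5% to 31.9% for shSRC1 replicate 4, from 1136 reads. These intervals cover counting error only. FCGR2A made up 14.9%, 11.5%, 25.5% and 16.5% of the 3 genes' reads in shNT and 12.7%, 10.5%, 10.6% and 11.4% in shSRC1, so its share overlapped between the groups.

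FCRLB, the intracellular Fc receptor-like gene, was also higher in every knockdown library. It stood at 262, 208, 178 and 215 in shNT and at 1722, 1888, 1525 and 1764 in shSRC1. The means were 216 ± 35 and 1725 ± 151 (SD, n = 4 each), a ratio of 7.99 and a log2 difference of 3.00 (SE 0.13), from 948 and 6496 reads. No window of 50 coding bases was shared with FCRLA or FCGR2B, the only genes FCRLB was compared with. Coding reads of FCRLB can thus be told from those of these genes. Its neighbour and relative FCRLA was all but unread, with 0 reads from shNT and 1 read each in shSRC1 replicates 1 and 4. A count of 0 allows up to 3 reads, or 2.67 to 2.79 normalized reads in a shNT library, so a difference in FCRLA was not detectable at this depth.

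The high-affinity receptor FCGR1A, on the same chromosome but outside the cluster, was slightly lower in the knockdown libraries. It stood at 154, 159, 207 and 176 in shNT and at 139, 117, 130 and 150 in shSRC1, means of 174 ± 24 and 134 ± 14 (SD, n = 4 each). The log2 difference was -0.37 (SE 0.12). The groups did not overlap, though the highest shSRC1 value, 150, lay close to the lowest shNT value, 154. Of its 1073 coding windows of 50 bases, 727 (67.8%) also occurred in the copy FCGR1B, so its reads may be divided. The copies FCGR1B and FCGR1C stood at 4.64 to 17.0 and 15.1 to 22.3 in shNT and at 10.00 to 22.0 and 18.0 to 24.5 in shSRC1. A second entry of the table with the symbol FCGR1A had 0 reads in every library.

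The natural killer and neutrophil receptors FCGR3A and FCGR3B, which lie between the FCGR2 genes on the other strand, were near the floor. FCGR3A had 0, 5.33, 9.28 and 0.90 normalized reads in shNT and 0.95, 3.50, 2.73 and 1.83 in shSRC1, in all 17 and 8 reads, and 10 of the 17 came from shNT replicate 3. FCGR3B had 5 reads in all from shNT and 4 from shSRC1. Of the coding windows of 50 bases, 35.6% in FCGR3A and 48.2% in FCGR3B also occurred in the other gene, so reads may be divided. Summed, the pair had 22 reads from shNT and 12 from shSRC1. Neither FCGR3A nor FCGR3B followed the FCGR2 genes on either side of it.

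FCER1G, whose product lets FCGR1A and FCGR3A signal, was also low. It stood at 3.71, 2.67, 13.0 and 9.87 in shNT and at 7.60, 7.00, 9.09 and 1.83 in shSRC1, with overlapping groups and 32 and 24 reads, of which shNT replicate 3 gave 14. The neonatal receptor FCGRT, the only one of the 10 genes on chromosome 19, stood at 92.8, 84.4, 65.0 and 92.4 in shNT and at 86.4, 105, 86.3 and 69.6 in shSRC1. Its means were 83.6 ± 13.0 and 86.8 ± 14.4 (SD, n = 4 each), and its log2 difference of 0.05 (SE 0.17) was smaller than the spread between libraries. Its partner B2M was at 8283 to 12132 in shNT and 8043 to 9635 in shSRC1, a log2 fold change of -0.20 (limma adjusted p = 0.188).

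In all, 6 of the 10 genes passed the filter on low values (10 normalized reads in at least 4 libraries). Of these, 4 were called higher at an adjusted p of 0.05 in limma and 0 lower, where 12.0% and 11.2% of the 19559 tested genes were called higher and lower. At a log2 difference of 2 or more, the size all 4 reached, 0.368% of tested genes were called higher. The groups did not overlap, with higher values in shSRC1, for 4 of the 6, and with lower values for 1, FCGR1A, which was not called. Of all tested genes, 16.9% and 12.1% did not overlap in these directions. The genes were chosen from this contrast, so nothing is read from these counts.

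**Figure D3:**
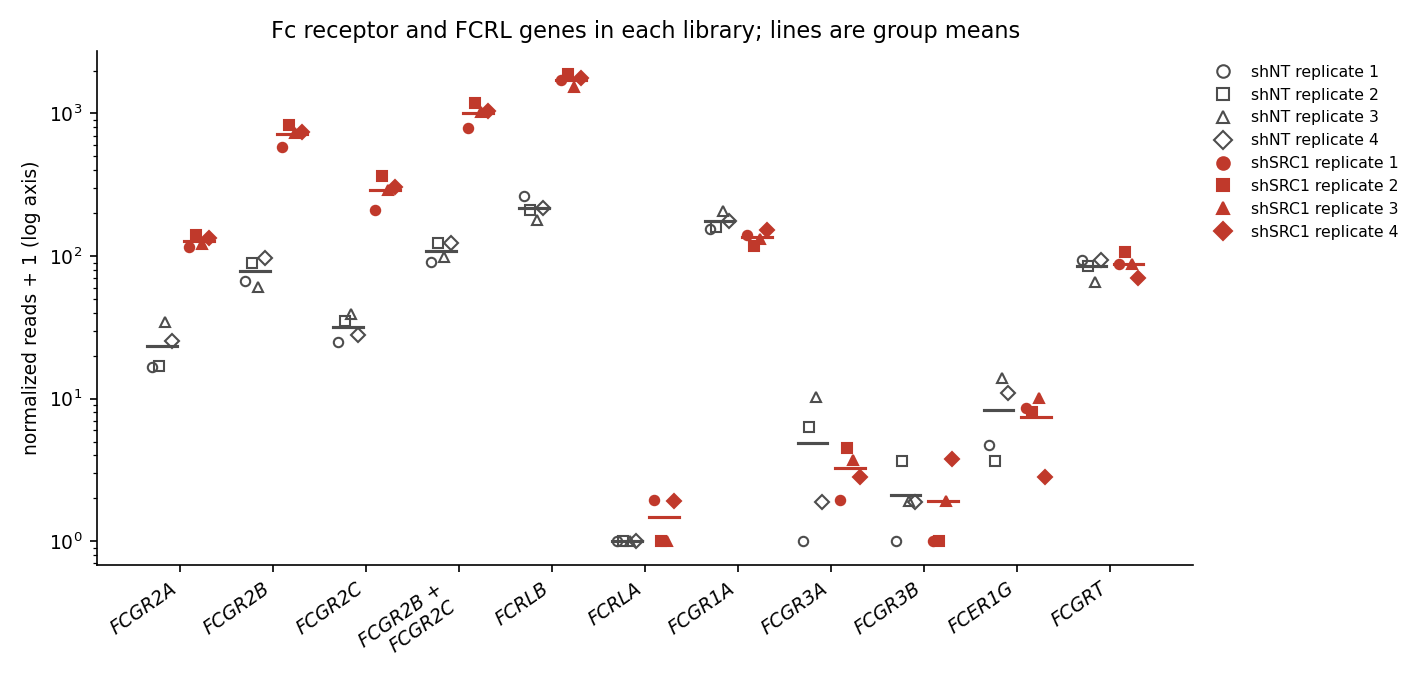
Normalized reads plus 1, on a log axis, of the 10 genes and of FCGR2B and FCGR2C summed, in each shNT (open) and shSRC1 (filled) library; lines are group means. FCGR2A, FCGR2B, FCGR2C and FCRLB stand apart between the groups, FCGRT overlaps, and FCRLA, FCGR3A, FCGR3B and FCER1G lie near the floor.

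Levels between genes were compared per kilobase of annotated exon. In shNT the order was FCRLB (83.3 normalized reads per kilobase), FCGR1A (58.0), FCGRT (20.05), FCGR2B (11.7), FCGR2C (8.58), FCER1G (7.58) and FCGR2A (4.21). The ranges of FCRLB and FCGR1A overlapped there, as did those of each neighbouring pair from FCGR2B downward. In shSRC1 the order was FCRLB (665), FCGR2B (108), FCGR2C (81.2), FCGR1A (44.7), FCGR2A (24.0), FCGRT (20.8) and FCER1G (6.62). Here FCRLB stood above all others without overlap, while FCGR2B and FCGR2C overlapped, as did FCGR2A and FCGRT. The inhibitory receptor was above FCGR2A per kilobase in both groups, 11.7 against 4.21 in shNT and 108 against 24.0 in shSRC1.

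The genes that were high in shSRC1 lie together on chromosome 1. In the order of the GENCODE 29 annotation the cluster reads FCGR2A, HSPA6, FCGR3A, FCGR2C, HSPA7, FCGR3B, FCGR2B, FCRLA, FCRLB and then DUSP12. HSPA6, a heat-inducible HSP70 chaperone gene, begins 526 bases after the end of FCGR2A on the same strand, and its pseudogene HSPA7 begins 628 bases after the end of FCGR2C, also on the same strand. Both are described because of their place, after their values had been seen. HSPA6 stood at 55.7, 46.2, 39.9 and 57.4 in shNT and at 163, 142, 127 and 176 in shSRC1, a log2 difference of 1.59 (SE 0.16) without overlap. HSPA7 stood at 7.42, 12.4, 6.50 and 6.28 in shNT and at 68.4, 107, 71.8 and 78.8 in shSRC1, a log2 difference of 3.19 (SE 0.25). Of 1880 coding windows of HSPA6, 1057 (56.2%) also occurred in HSPA7, so the pair can share reads. The minus-strand genes FCGR3A and FCGR3B between them stayed near the floor.

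The genes next to the cluster on either side had smaller differences. The nearest tested protein-coding gene before FCGR2A, C1orf192, differed by 0.04 on the log2 scale (SE 0.12, limma adjusted p = 0.822), and the next, the succinate dehydrogenase subunit gene SDHC, rose by 0.39 (limma adjusted p = 0.0194). SDHC no longer passed without shSRC1 replicate 2 (adjusted p = 0.0550 in limma) or replicate 4 (0.0508). A processed pseudogene that lies nearer, AL592295.1, had a log2 fold change of 0.76 (limma adjusted p = 0.0821). After FCRLB, the phosphatase gene DUSP12 rose by 0.27 (limma adjusted p = 0.0345), a call that was lost in 6 of 16 alternative settings, and the stress sensor gene ATF6 rose by 0.35 (limma adjusted p = 0.0102).

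Of the 20 protein-coding genes before FCGR2A and the 20 after FCGR2B, 37 remained without the genes described here, and 28 were tested. Of these, 10 rose and 1 fell, or 39.3% called in either direction, where 12.0% of all tested genes rose, 11.2% fell and 23.2% were called. The median log2 fold change was 0.23, and -0.0025 over all tested genes. RGS5, a regulator of G protein signalling, rose from 17.9 ± 6.6 to 46.5 ± 1.2 (SD, n = 4 each), a log2 fold change of 1.42 that came near that of HSPA6 (limma adjusted p = 0.0046). C1orf226 and ATF6 rose by 0.64 and 0.35, and PCP4L1 fell by 0.54 (limma adjusted p = 0.0177, lost with no filter at 0.0557 and without shNT replicate 4 at 0.0546). Without shSRC1 replicate 2 or without replicate 4 only 6 of the neighbours were called in place of 11. Calls over all tested genes fell too, from 4538 to 3124 without shSRC1 replicate 2. The neighbours' median was 0.14 without shNT replicate 3, where SDHC stood at 6000 against 8131 or more in the other shNT libraries.

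**Figure D4:**
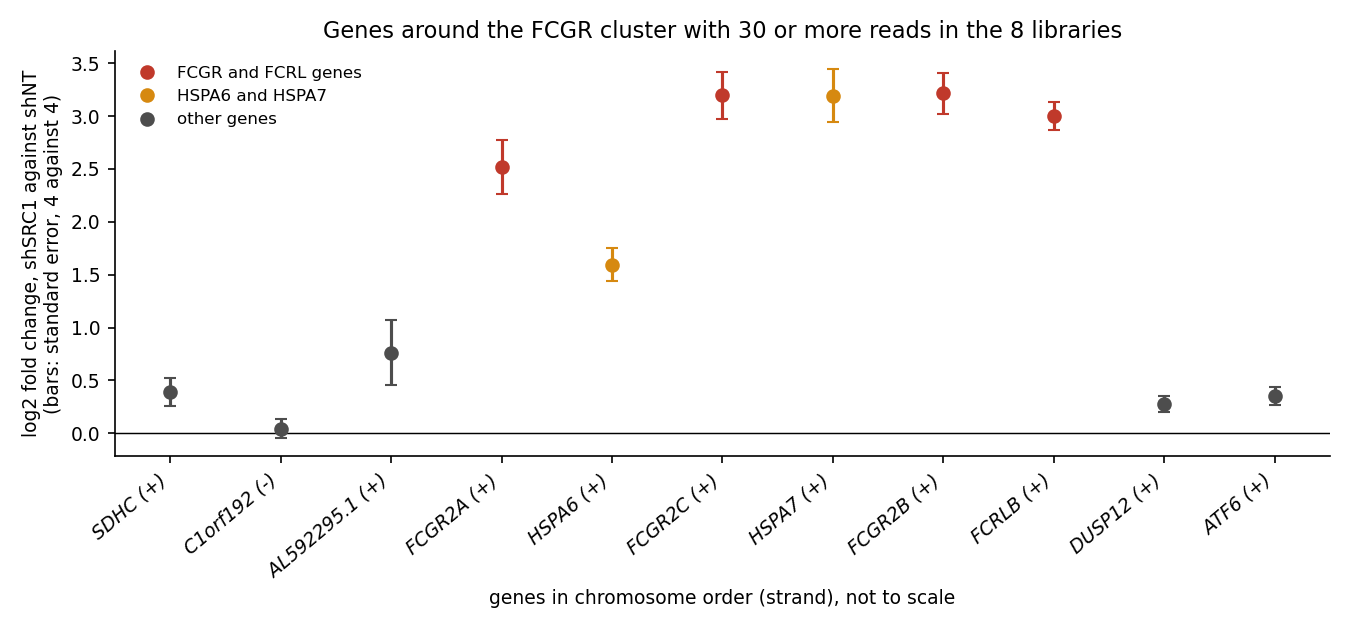
Log2 fold change, shSRC1 against shNT, with its standard error (4 against 4 libraries), of the genes in and around the cluster that had 30 or more reads in all, in chromosome order and not to scale. FCGR2C, HSPA7, FCGR2B and FCRLB stand between 3.00 and 3.22, FCGR2A at 2.52 and HSPA6 at 1.59, and the flanking genes between 0.04 and 0.76.

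The 5 tested genes whose profile over the 8 libraries was most like that of FCGR2B and FCGR2C summed were HSPA7, HCCAT3, ATP4A, SERPINA11 and BCAT1. Likeness was the root mean square difference between centred log2 profiles, 0.25, 0.30, 0.30, 0.32 and 0.36 in that order. HSPA7 is the pseudogene inside the cluster. ATP4A, the catalytic subunit of the gastric proton pump, went from 111 ± 19 to 858 ± 103 normalized reads, and BCAT1, a branched-chain amino acid transaminase, from 6.34 ± 3.33 to 73.8 ± 13.3 (n = 4 each). These genes were chosen for their likeness, so their differences are not tested here.

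Most other antibody receptors were too low to test. Of 17 listed, 6 had 0 reads in every library, namely FCER1A, MS4A2 and FCER2 of the IgE receptors and FCRL1, FCRL4 and FCRL5, and only 5 were tested. FAIM3, the IgM receptor gene, rose from 41.9 ± 11.5 to 90.0 ± 11.4 (SD, n = 4 each), with 39.0, 49.8, 26.9 and 52.0 in shNT and 106, 89.2, 82.7 and 81.6 in shSRC1 (log2 fold change 1.12, limma adjusted p = 0.0030). TRIM21, the cytosolic antibody receptor, was the highest of them at 812 to 1167 in shNT and 824 to 984 in shSRC1 and did not pass the test (limma adjusted p = 0.422). The FCRL genes apart from FCRLB had at most 7.00 normalized reads in any library, the value of FCRL6 in shSRC1 replicate 2.

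The called signalling genes downstream of Fc receptors went in both directions, and the share called was near that of all genes. Of 45 listed genes 35 were tested; 2 rose, 7 fell and 26 did not pass, so 25.7% were called where 23.2% of all tested genes were, and the median log2 fold change was -0.11. FYN, a Src family kinase gene, rose from 144 ± 19 to 327 ± 47 (SD, n = 4 each; log2 fold change 1.18, limma adjusted p = 5.41e-05). LYN, a Src family kinase that phosphorylates receptor tails, fell from 199 ± 23 to 115 ± 12 (log2 fold change -0.79, limma adjusted p = 0.0016). The exchange factor gene VAV3 fell by 0.77 and PTPN11, the gene of the phosphatase SHP-2, by 0.43 (limma adjusted p 1.82e-04 and 0.0036). SYK, the kinase that binds phosphorylated activating motifs, stood at 3309 ± 345 and 3891 ± 187 and did not pass (limma adjusted p = 0.0630). Genes of the motif-bearing adaptors TYROBP and CD247 were too low to test, at 4.58 or less and 8.89 or less.

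INPP5D, the gene of the phosphatase SHIP1 that the inhibitory motif of FCGR2B recruits, was the other gene of this list to rise. It stood at 15.8, 13.3, 9.28 and 17.0 in shNT and at 25.6, 33.2, 22.7 and 23.8 in shSRC1, without overlap (log2 fold change 0.90, SE 0.30, limma adjusted p = 0.0446). The call was lost in 8 of 15 alternative settings, among them all leave-one-out fits except the one without shNT replicate 4, with adjusted p between 0.0402 and 0.114 over all 15. With the replicate number as a block, 15 genes of the list were called in place of 9. Calls over all tested genes also changed with the setting, from 3124 to 6398 over 16 alternatives, so nothing is read from this rise.

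Of 30 phagocytosis effectors 29 were tested; 2 rose, 4 fell and 23 did not pass, and 20.7% were called against 23.2% of all tested genes. AMPH, the gene of the membrane-bending protein amphiphysin, rose from 115 ± 12 to 412 ± 28 (SD, n = 4 each), with 126, 112, 99.3 and 124 in shNT and 374, 418, 413 and 441 in shSRC1 (log2 fold change 1.83, limma adjusted p = 1.62e-07). ELMO1, an engulfment adaptor, rose by 0.86, and DOCK1, the exchange factor it works with, fell by 0.40 (limma adjusted p 0.0020 and 0.0199). DOCK1 missed the threshold without shNT replicate 1 (adjusted p = 0.0503 in limma) and without shSRC1 replicate 1 (0.0579). The phospholipase gene PLD1 fell from 417 ± 16 to 184 ± 20 (limma adjusted p = 6.92e-06), MYO10 by 0.31 and MARCKS by 0.21. The call of MYO10 was lost with no filter (limma adjusted p = 0.0582) and that of MARCKS in 8 of 16 alternative settings.

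**Figure D5:**
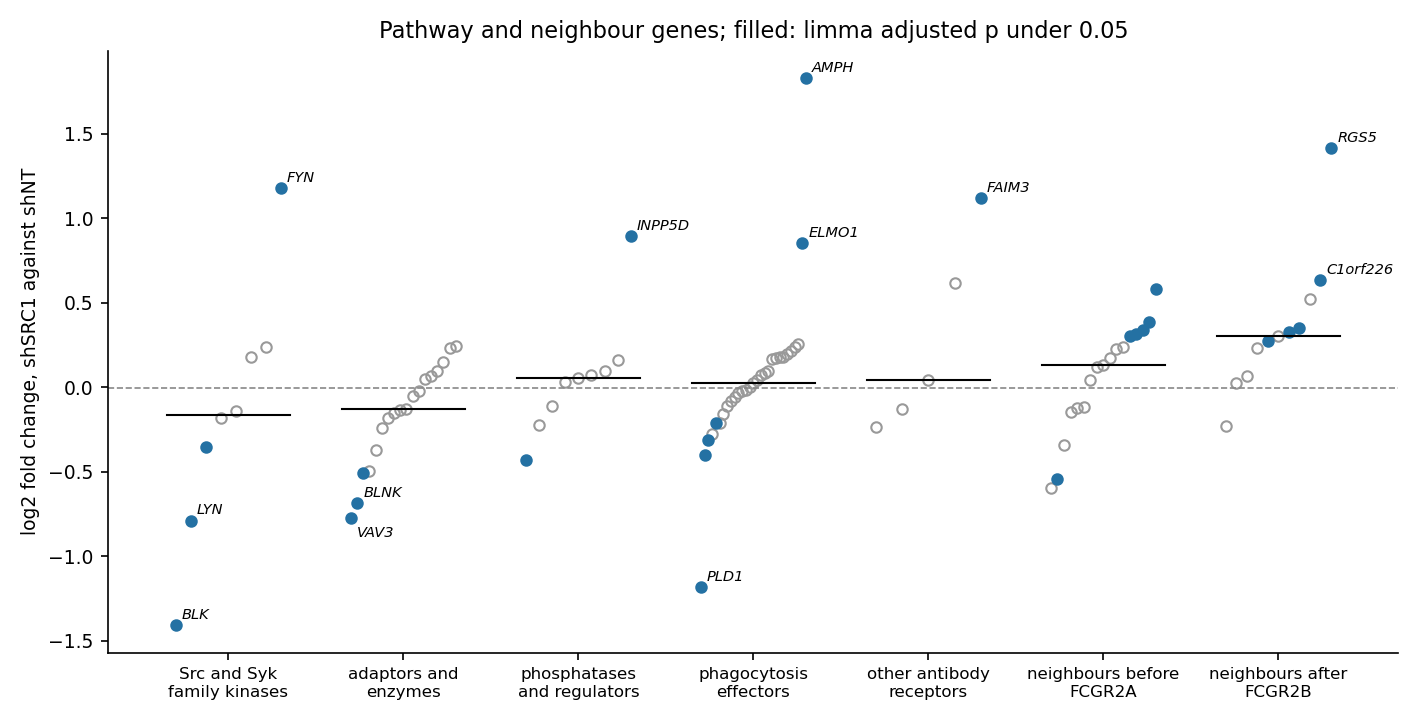
Log2 fold change, shSRC1 against shNT, of each tested gene of the signalling, phagocytosis and receptor lists and of the cluster's neighbours; filled points passed an adjusted p of 0.05 in limma, black bars are list medians and the dashed line is the median of all tested genes. The lists run from -1.41 for BLK to 1.83 for AMPH and their medians lie between -0.16 and 0.31.

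Several defining markers of the cells that normally carry these receptors were at or near 0. Of 10 myeloid markers the summed level was 58.5 to 118 in shNT and 61.7 to 91.8 in shSRC1, overlapping, and the PU.1 gene SPI1 had at most 12.7 normalized reads, in shSRC1 replicate 3. Of 8 B cell markers MS4A1 and CD79B were at 0 in every library, yet the sum was 933 to 1112 in shNT and 1295 to 1322 in shSRC1. That sum rests mainly on CD22, which rose from 568 ± 60 to 912 ± 35 (n = 4 each, limma adjusted p = 2.24e-04), and PAX5, at 390 ± 35 and 322 ± 8 (limma adjusted p = 0.0775). The Src family kinase gene BLK, counted in this list and among the signalling genes, fell from 20.8 ± 7.2 to 8.16 ± 4.71 with overlapping groups (limma adjusted p = 0.0481, lost in 8 of 15 alternative settings). Of 9 natural killer and T cell markers CD3D, CD3G and NCR1 were at 0 in every library, and the sums overlapped, at 577 to 710 and 618 to 682, nearly all of it CD8A.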

How the data were processed

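RNA captured by its poly(A) tail was sequenced from 4 shNT and 4 shSRC1 samples of LY2 cells, with an Illumina TruSeq kit that the labels do not describe as stranded. Groups come from the labels. The authors deposited 1 table of 63677 genes whose values are a signal proportional to reads, a count divided by a size factor per library. The build was GRCh37 and the tools were DESeq, DESeq2, HTSeq 0.6.1 and TopHat2 2.0.12, per the submitters' processing notes. How HTSeq treated strand or reads that match 2 genes is not given in the sources used here. Whole reads were recovered from the fixed step of each library, and 100.0% of values came out whole within 0.001 reads.

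The genes described, the lists and the tests were chosen with earlier results of these data known. The test was limma 3.58.1 in R 4.3.3 (trend, robust) on log2(value + 1) over the 19559 genes that reached 10 normalized reads in 4 or more libraries, two-sided, Benjamini-Hochberg adjusted, called below 0.05, without a block for replicate number. It was tested on simulated data. Standard errors of the described genes come from the group SDs of the log2 values, those of other genes from limma. As an alternative, edgeR 4.0.16 (quasi-likelihood) on the recovered reads called 4635 genes, 4350 of them among the 4538 called by limma. Other alternatives changed the scaling (TMM, upper quartile), the filter (none, or 50 normalized reads), the pseudocount (0.5 or 5) or the block, or left out each library in turn.

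Named beside the 10 genes are NCOA1, up to 4 called genes of each list and of the neighbours by smallest adjusted p, the nearest tested neighbours, and the 5 genes of most similar profile. HSPA6, SDHC, AL592295.1, INPP5D, SYK, TRIM21, B2M, DOCK1, MARCKS, PCP4L1, BLK, PAX5 and the immunoglobulin and leukocyte genes were named after their values were seen. Not every gene selected this way is reported here. All 147 list entries matched by symbol. Gene order, exon length and coding sequences come from GENCODE 29 and upstream sequences from RefSeq (GRCh38.p14), both on another build than the table, so no table value is tied to their coordinates.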

Additional observations from a re-analysis of the deposited data

Results flagged for a closer look

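In shNT replicate 3 several values stood far from the other 3 shNT libraries, by Dixon's test at its 95% critical value, which chance passes in about 1 in 20 groups. Many groups of values were tested this way. The flags are not independent, since the flagged sums contain genes or smaller sums that are flagged beside them. The immunoglobulin constant genes summed to 729 normalized reads and IGHG1 to IGHG4 to 652, both the highest of the group. The luminal marker sum was the lowest, at 340043, as were KRT19 at 46192 and KRT8 at 103828. In shSRC1 replicate 1, KRT19 at 101251 and KRT8 at 235045 were the highest of their group. SERPINA11, one of the genes with a profile like FCGR2B and FCGR2C summed, was highest in shNT replicate 4, at 5.38 normalized reads. None of the 10 Fc receptor and FCRL genes had such a library in either group.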

How the results depend on the processing

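The log2 differences of FCGR2A, FCGR2B, FCGR2C and FCRLB ran from 2.32 to 2.73, 3.10 to 3.33, 3.04 to 3.35 and 2.92 to 3.10 over 14 alternative settings each, and that of FCGR2B and FCGR2C summed from 3.13 to 3.32 over 13. FCGR1A ran from -0.43 to -0.28. FCGRT, from -0.06 to 0.15, and FCER1G, from -0.43 to 0.31, changed sign within their spread. The number of all genes called ran from 3124 to 6398. With the replicate block, 15 of the signalling genes were called in place of 9. The labels do not say that a number pairs libraries. Same-numbered libraries correlated in their deviations from the group means by 0.24, -0.01, 0.13 and 0.14, each above 0.1 except for replicate 2, and shNT replicate 2 correlated best with shSRC1 replicate 4. Leaving out 1 library gave 6 to 11 called neighbours, with 6 without shSRC1 replicate 2 and 6 without replicate 4. Over the same fits 3124 to 4776 of all genes were called, the fewest without shSRC1 replicate 2. Depth limits FCRLA, FCGR3A, FCGR3B and FCER1G, with 2 to 56 reads each over all libraries.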
